A study of Mus musculus with 2 samples.

Results

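The cells described here are 250 distal lung epithelial cells of a mouse embryo library labelled control that carried the most RNA of 4 genes of the alveolar type 1 (AT1) lineage. They are called AT1-leaning cells below. They were drawn from 3179 kept cells of the control library, of which they make up 7.86%. A cell qualified when it had at least 1 unique molecular identifier (UMI, a tag that counts 1 captured RNA molecule) of Ager and at least 1 of Epcam, and none of Sox2, Scgb3a2 and Sftpa1. Of the 792 cells that met these conditions, the 250 with the highest summed level of Ager, Hopx, Akap5 and Rtkn2 were taken, with levels in CPM, the usual scale on which every cell's UMIs are brought to the same total.

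The series concerns the LEF/TCF factors, which carry Wnt signals into the nucleus, in progenitors of the lung epithelium. RNA was counted in single epithelial cells sorted by flow cytometry from mouse lungs at embryonic day 15, with 1 library labelled control and 1 library in which the labels say the LEF/TCF factors were knocked out. All values here come from the control library, for which the labels give the genotype as control and name no allele, strain or number of embryos. The knockout library's barcode list was used only to look for shared barcodes, and its expression was not analysed here.

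AT1 cells are the thin, flat cells that cover most of the gas-exchange surface, and alveolar type 2 (AT2) cells are the cuboidal cells that make surfactant. Both descend from distal epithelial tips that express Sox9 and Id2 and are kept in a progenitor state by fibroblast growth factor signals from the mesenchyme. Cells that leave the tip start to express AT1 or AT2 genes, while Sox2 marks the airway lineage.

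After removal of 389 of 3568 barcodes, the kept cells had from 2013 to 29968 UMIs each, with a median of 12097. AT1-leaning cells had a median of 11621.5 UMIs and the 2929 other kept cells 12231. A ratio is the level of AT1-leaning cells over that of a reference, and a gene was called higher at a ratio of 1.5 or more and lower at 1/1.5 or less. The first reference was all other kept cells. The second was the 932 cells that passed the same zero conditions and the Epcam condition but had no Ager UMI, called Ager-zero distal cells, so that neither airway cells nor Sftpa1-positive cells entered it. Further classes were the 542 cells that met the conditions with a lower score, 648 Sftpa1-positive distal cells and 694 airway cells with a Sox2 or Scgb3a2 UMI. With 1 library there was no replicate spread and no test, and the 95% intervals cover only the error of counting. Because the cells were chosen from the same counts, every difference below is a description of the chosen cells. The 2 libraries listed 29 barcodes in common, 23 of them kept cells and 0 of them AT1-leaning. Cells with at least 4 Xist UMIs and a Y-linked UMI, which can be droplets that caught a female and a male cell, made up 2.40% of AT1-leaning cells (6 cells, interval 0.886 to 5.15%) and 3.99% of the other kept cells. By class the share was 9.22% of airway cells (64 cells, 7.17 to 11.6%), 3.55% of Sftpa1-positive distal cells and 1.07% of Ager-zero distal cells. Levels given for airway cells may thus hold more RNA of mixed droplets than those of the other classes.

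The choice rested mostly on Ager, which encodes the receptor for advanced glycation end products, a membrane protein of AT1 cells. Ager gave 69.8% of the UMIs in the score. All 250 AT1-leaning cells had an Ager UMI by construction, with 1 UMI in 47 cells, 2 in 70 and 3 or more in 133. Akap5, an anchor for protein kinase A, was seen in 131 cells, Rtkn2 in 61 and Hopx, a homeodomain cofactor of AT1 cells, in 27. Ager was the only one of the 4 genes in 78 cells, and 4 cells had a UMI of all 4. The score ran from 1473 CPM down to 227.45 CPM at rank 250, a cell of 8793 UMIs with 1 Ager and 1 Akap5 UMI. The next cell, at rank 251, had 227.22 CPM from 8802 UMIs with the same 1 Ager and 1 Akap5 UMI, so no gap separates the chosen cells from the rest. The 50 highest cells were shallower, with a median of 8689.5 UMIs.

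**Figure D1:**
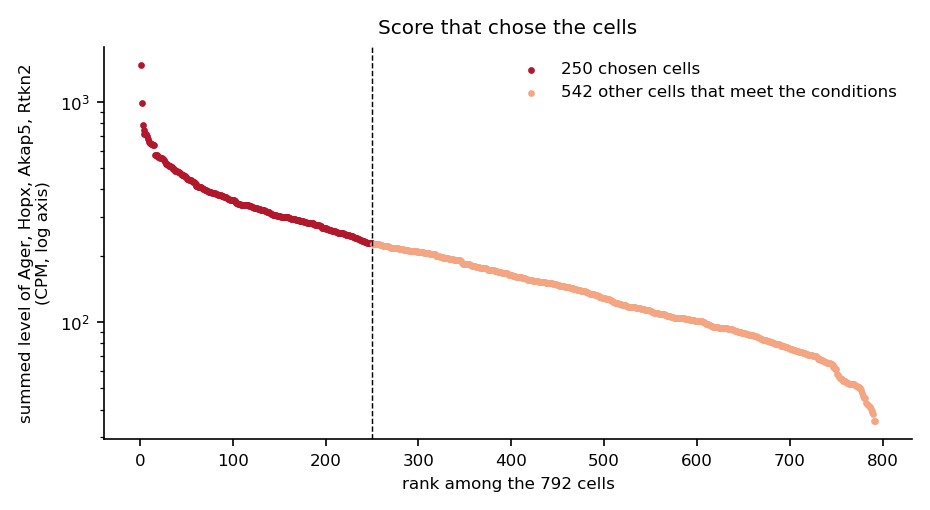
Score of the 792 cells that met the conditions, as the summed level of Ager, Hopx, Akap5 and Rtkn2 in CPM on a log axis, against rank; the dashed line marks rank 250. The curve passes from 227.45 to 227.22 CPM at that rank with no step.

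By construction the level of Ager was 247 CPM (229.7 to 265) in AT1-leaning cells and 42.6 CPM in the other kept cells, and these values are given only to show what was chosen. Akap5 stood at 72.8 against 25.04 CPM, Rtkn2 at 23.9 against 6.78 CPM and Hopx at 10.2 against 3.26 CPM. GENCODE M21 (build GRCm38) places Ager on the plus strand at chr17:34597862-34600936. Smoc2, a matrix-associated calcium-binding protein gene at chr17:14279506-14404790, was named in advance as a marker of the cells and took no part in the score. The cells and the gene lists were chosen with earlier results of these data known, so its level is not an independent readout.

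Across all genes, 8048 entered the comparison with all other kept cells, which means that the pooled level predicted at least 20 UMIs in AT1-leaning cells. Of these, 151 (1.88%) were higher and 216 (2.68%) lower, and the median log2 ratio over all of them was 0.03. The interval lay above 1 for 151 of the 151 and below 1 for 176 of the 216. Against Ager-zero distal cells 7903 genes entered, 422 (5.34%) were higher and 167 (2.11%) lower, and the median log2 ratio was 0.10. The interval lay beyond 1 for 408 of the 422 and 112 of the 167. The share of calls that were higher, 71.6% against Ager-zero distal cells, depended on the scaling. It was 56.4% (300 higher, 232 lower) with mitochondrial and ribosomal protein genes left out of the totals and 49.4% (251 higher, 257 lower) with ratios centred on the median gene. The 2 comparisons share the AT1-leaning cells. Between them 132 genes were higher in both, 118 lower in both and 0 opposite.

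**Figure D2:**
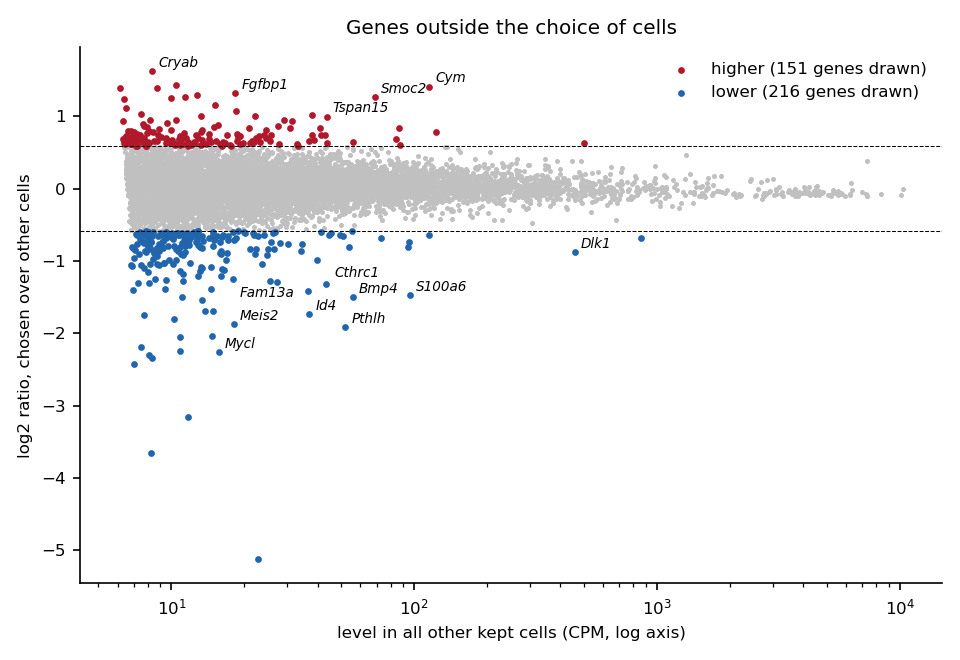
Each point is a gene that entered and was not used in the choice, with its level in all other kept cells in CPM (log axis) and its log2 ratio; red and blue points lie past the 1.5-fold limits (dashed), and some leading genes are named. Cryab is the highest point at 1.62, and the lowest, which is not named there, is the platelet gene Pf4 at -5.12.

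Smoc2 stood at 165 CPM (151 to 180) in AT1-leaning cells, 103 CPM in the cells with a lower score, 59.4 CPM in Ager-zero distal cells, 31.3 CPM in Sftpa1-positive distal cells and 94.5 CPM in airway cells. It was highest in AT1-leaning cells and lowest in Sftpa1-positive cells, with airway cells between. The ratio was 2.40 (2.18 to 2.64) to all other kept cells and 2.78 (2.47 to 3.13) to Ager-zero distal cells. With every cell thinned to 5000 UMIs, 45.8% of 238 AT1-leaning cells (39.3 to 52.4%) had a Smoc2 UMI, against 21.8% of Ager-zero distal cells (19.1 to 24.6%), where the unthinned shares were 64.4% and 31.8%. As a measure of free RNA, 0 of 37 Epcam-zero cells with collagen UMIs had a Smoc2 UMI at that depth, with an exact upper bound of 9.49%. Among cells with high Xist and no Y-linked UMI, 58 of them AT1-leaning, the Smoc2 ratio to all other kept cells was 1.48, the lowest of its 18 alternative settings. Among cells with a Y-linked and no Xist UMI, 95 of them AT1-leaning, it was 2.85, the highest. To Ager-zero distal cells the same settings gave 1.56 and 3.56. Cells with high Xist and no Y-linked UMI were 58 of 250 AT1-leaning, 298 of 932 Ager-zero distal and 838 of 2929 other kept cells. What part sex or embryo had in this was not tested.

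Other genes with the largest ratios were Cym, Fgfbp1, Cryab, Pdzk1ip1, Tinag, Clic3, Tspan15, Igfbp7, Cdh16, Plb1, Mmp23, Ly6h, Fads3 and Emp2. Cym encodes chymosin, a secreted aspartic protease, and it led the list at 306 CPM (286 to 326) against 115 CPM in all other kept cells. By class Cym was 185 CPM in the cells with a lower score, 114 CPM in Ager-zero distal cells, 130.1 CPM in Sftpa1-positive cells and 48.2 CPM in airway cells, so it was lowest in the airway, where Smoc2 was not. The ratio of Cym was 2.66 (2.48 to 2.86) to all other kept cells and 2.68 (2.46 to 2.92) to Ager-zero distal cells. One AT1-leaning cell alone held 74 of the 932 Cym UMIs. At 5000 UMIs, 46.6% of AT1-leaning cells had a Cym UMI and 25.1% of Ager-zero distal cells did, with unthinned shares of 60.0% and 37.4%.

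Fgfbp1, a secreted carrier of fibroblast growth factors, was at 45.6 CPM (38.3 to 53.8) in AT1-leaning cells against 18.3 CPM in all other kept cells, a ratio of 2.49 (2.06 to 2.99), and at 14.6 CPM in Ager-zero distal cells, a ratio of 3.12 (2.46 to 3.94). Clic3, of the chloride intracellular channel family, was at 31.2 CPM against 12.7 CPM, a ratio of 2.45 (1.95 to 3.06). Cryab, a small heat shock protein gene, had the largest plain ratio of the group at 3.08 (2.37 to 3.95), from 25.6 against 8.31 CPM. Emp2, a tetraspan membrane protein gene of AT1 cells, was at 60.0 CPM against 31.4 CPM, a ratio of 1.91 (1.63 to 2.23). In airway cells Emp2 was at 43.5 CPM and Clic3 at 17.5 CPM, above their 23.5 and 6.79 CPM in Sftpa1-positive cells. Tspan15, a tetraspanin, stood at 86.9 against 43.6 CPM and Tinag, a basement membrane glycoprotein gene, at 77.1 against 38.0 CPM. Ly6h was at 155 against 86.4 CPM. The other 6 of these 15 genes ran from 23.0 CPM (Igfbp7) to 44.6 CPM (Fads3) in AT1-leaning cells, with ratios of 2.01 (Fads3) to 2.71 (Pdzk1ip1). Of the 15, Smoc2, Tinag and Igfbp7 came under 1.5 among cells with high Xist and no Y-linked UMI, where Tinag was 1.27 and Igfbp7 1.35. With all 792 cells as the chosen ones, 4 others did, namely Emp2 and Ly6h at 1.40, Fads3 at 1.46 and Cdh16 at 1.49. Fgfbp1 was 1.54 among cells with high Xist and no Y-linked UMI and 2.99 among cells with a Y-linked and no Xist UMI.

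**Figure D3:**
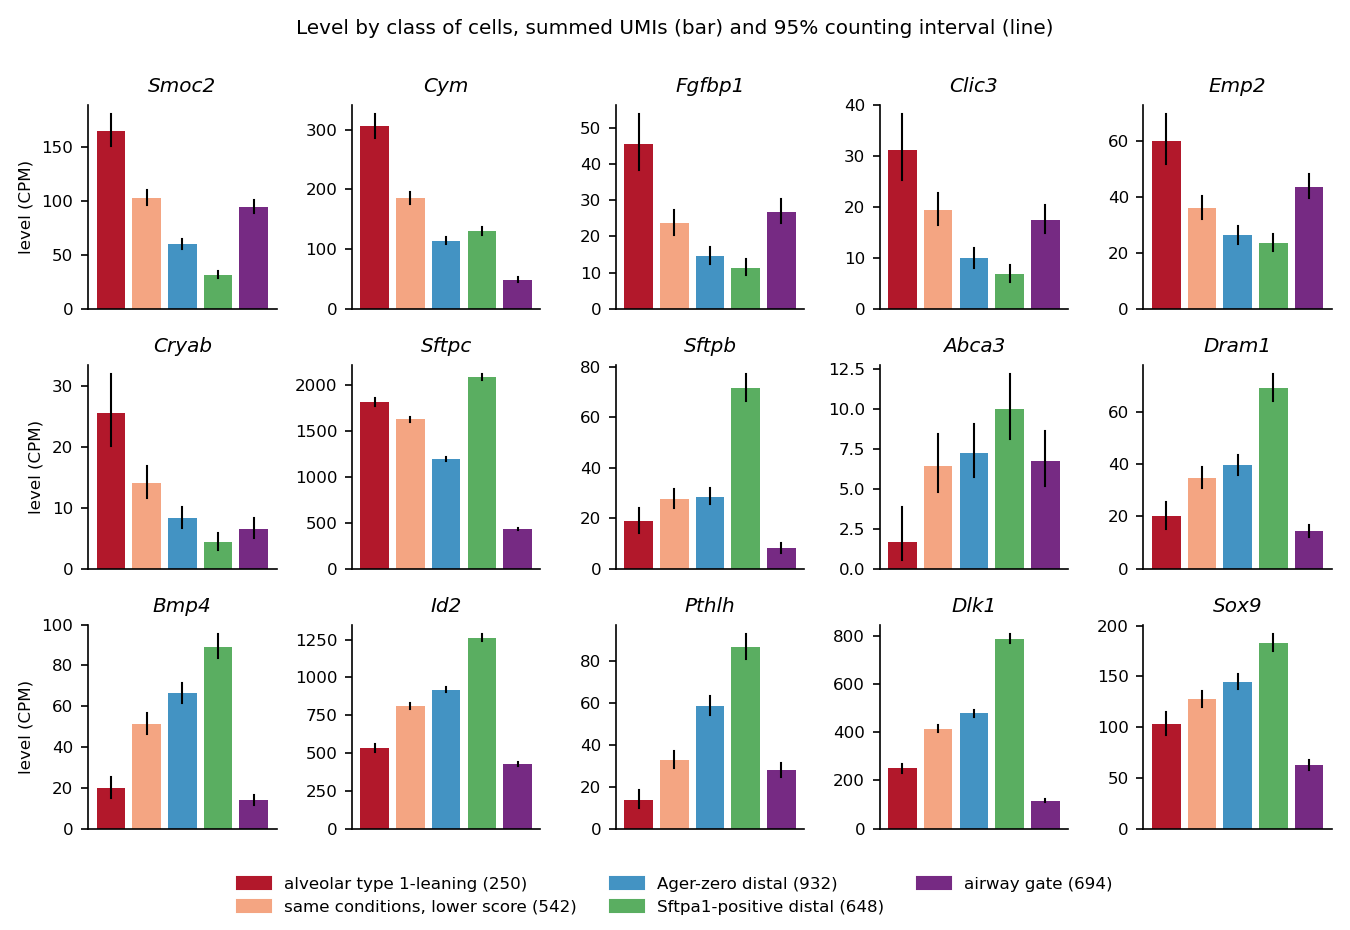
Level in CPM of 15 genes by class of cells, where bars are UMIs summed over the class over its UMI total and lines are 95% counting intervals. Smoc2, Cym, Fgfbp1, Clic3, Emp2 and Cryab are highest in AT1-leaning cells, while Bmp4, Id2, Pthlh and Dlk1 are highest in Sftpa1-positive distal cells.

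The genes with the lowest ratios fell into 2 kinds by where else they were high. Bmp4, Pthlh, Dlk1, Cthrc1, Cox4i2, Pcsk6, Thbd and Dram1 were highest in Sftpa1-positive distal cells. Bmp4, a secreted signal of the distal tip, was at 19.7 CPM (15.0 to 25.3) in AT1-leaning cells, 51.3 CPM in the cells with a lower score, 66.6 CPM in Ager-zero distal cells, 89.2 CPM in Sftpa1-positive cells and 14.0 CPM in airway cells. The ratio of Bmp4 was 0.353 (0.269 to 0.456) to all other kept cells and 0.296 (0.223 to 0.385) to Ager-zero distal cells. Pthlh, which encodes parathyroid hormone-related protein, a signal from epithelium to mesenchyme, stood at 13.8 CPM against 58.5 CPM in Ager-zero distal cells, a ratio of 0.236 (0.168 to 0.322). Dlk1, an imprinted membrane protein gene of the Notch ligand family, stood at 250.3 CPM against 479 CPM, a ratio of 0.523 (0.484 to 0.564).

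S100a6, Id4, Fam13a, Mycl, Meis2 and Rassf9 were instead highest in airway cells, which the conditions on Sox2 and Scgb3a2 remove, and so was Car8, a carbonic anhydrase-related gene, at 10.5 against 25.4 CPM. S100a6, a calcium-binding protein gene, was at 34.8 CPM in AT1-leaning cells, 309 CPM in airway cells and 37.3 CPM in Ager-zero distal cells. Its ratio was therefore 0.362 (0.296 to 0.439) to all other kept cells but 0.932 (0.745 to 1.16) to Ager-zero distal cells. Fam13a and Rassf9 likewise met the lower limit against all other kept cells only, with ratios of 0.782 and 0.692 to Ager-zero distal cells. Car8 met it against both references, at 0.413 to all other kept cells and 0.427 to Ager-zero distal cells, and so did Id4 at 0.301 and 0.654. When all 792 cells that met the conditions stood in for the 250, Bmp4 came to 0.7503 and Dlk1 to 0.788 against all other kept cells, past the limit for neither.

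Sequence upstream of these genes was read from RefSeq (GRCm38.p6) to show what lies just before the starts of genes at both ends of the range. The 250 bases before the start were searched on both strands for 5 motifs, the NKX2 motif CAAGTG, the TEAD motif GGAATG, the LEF/TCF motif CTTTGA, the FOX motif TGTTTAC and the ETS motif CCGGAAG. These letters and the genes printed were chosen after the values were known. Of 34 leading genes 25 had an entry in the table, and 9 of those held a match. Only some of these windows are printed. Among those not printed, the lower genes were S100a6 (NKX2), Id4 (TEAD) and Meis2 (LEF/TCF). Plb1 (TEAD and LEF/TCF), also not printed, was a higher gene. The NKX2, TEAD and LEF/TCF letters thus stood before genes of both sides. Capitals mark the match, lower case the flanks, and each window runs 5′ to 3′ on the strand of its gene, upstream of the gene's span in GENCODE M21. Fgfbp1 and Tinag hold the NKX2 letters on the opposite strand (chr5:43981800-43981845 and chr9:77045854-77045929, both minus strand), and Ckb, which encodes brain creatine kinase, holds the TEAD letters (chr12:111672339-111672414, minus strand). Among the lower genes, Bmp4 holds the ETS letters on the opposite strand (chr14:46390724-46390800, minus strand) and Dlk1 the FOX letters (chr12:109452721-109452797, plus strand), a second copy of which stands in lower case in the same window.
Fgfbp1: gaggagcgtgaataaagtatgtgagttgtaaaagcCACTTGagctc
Tinag: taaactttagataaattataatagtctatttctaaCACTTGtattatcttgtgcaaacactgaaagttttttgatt
Ckb: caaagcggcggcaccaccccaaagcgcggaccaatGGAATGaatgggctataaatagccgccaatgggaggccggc
Bmp4: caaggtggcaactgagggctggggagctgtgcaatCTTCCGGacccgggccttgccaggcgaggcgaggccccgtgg
Dlk1: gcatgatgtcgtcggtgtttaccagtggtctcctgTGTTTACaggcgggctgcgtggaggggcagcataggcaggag

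Such letters are common. The search left out chromosome 18, and these shares use a single promoter per gene. The TEAD letters stood in 12.6% of the 27025 promoters searched and in 10.2% of the 6380 promoters of genes that entered the comparison with all other kept cells. They stood in 19.4% of 103 promoters of genes called higher in both comparisons and in 13.2% of 91 promoters of genes called lower in both. The NKX2 letters stood in 11.6%, 8.64%, 13.6% and 9.89% of the same sets, and the LEF/TCF letters in 14.05%, 10.4%, 14.6% and 5.49%. The FOX letters stood in 3.09%, 2.13%, 0.971% and 6.59%, and the ETS letters in 7.05%, 16.4%, 9.71% and 15.4%. A match describes letters and is not a binding site.

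Among AT1 genes outside the rule, 18 of 30 entered against all other kept cells. Of these, 4 were higher (Smoc2, Clic3, Cryab and Emp2) and 1 lower (S100a6), beside the 1.88% and 2.68% of all genes. Smoc2 is the marker named in advance with the cells. The median log2 ratio of the 18 genes was 0.33 beside 0.03. Against Ager-zero distal cells 17 entered, 8 were higher and 0 lower, beside 5.34% and 2.11%, with a median of 0.45 beside 0.10. The 4 added were Krt7, Col4a4, Sema3e and Ahnak. Krt7, an epithelial keratin gene, was at 223 CPM against 129 CPM in Ager-zero distal cells, a ratio of 1.73 (1.58 to 1.90), and at 212 CPM in airway cells. Col4a4, a chain of the alveolar basement membrane collagen, was at 11.5 against 6.37 CPM, a ratio of 1.80 (1.16 to 2.75). Sema3e, a semaphorin, was at 23.3 against 14.5 CPM, and its ratio turned to 0.787 among cells with high Xist and no Y-linked UMI. Ahnak, a large scaffold protein gene, was at 12.5 against 7.50 CPM.

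Some AT1 genes were scarce. Aqp5, the water channel of AT1 cells, had 1 UMI in the 250 AT1-leaning cells (0.328 CPM). Spock2, Cyp2b10 and Sec14l3 had none, which allows up to 0.984 CPM at 3 counts. Cav1, which forms caveolae, was at 2.62 CPM (1.13 to 5.17) against 0.844 CPM in Ager-zero distal cells, Clic5 at 2.95 against 0.469 CPM, and Col4a3, the partner chain of Col4a4, at 2.30 against 0.187 CPM, all below the level at which a gene entered. Cavin1, also of caveolae, was at 7.22 (4.52 to 10.9) against 1.97 CPM and did not enter either. Pdpn, a surface protein used to mark AT1 cells, was at 42.3 CPM (35.3 to 50.3) against 42.6 CPM in all other kept cells. In Sftpa1-positive cells it was at 55.2 CPM, so it was not highest in AT1-leaning cells. Vegfa, a growth factor for vessels, was at 8.20 against 7.04 CPM with overlapping intervals. Igfbp2 was at 463 CPM (439 to 487) against 347 CPM, a ratio of 1.33 (1.26 to 1.41), and Cldn18 at 317 against 249.8 CPM, a ratio of 1.27 (1.19 to 1.35), both within the limit. Of the AT1 genes outside the rule that entered, 4 of 18 were higher and 13 of 18 lay within the limits, Pdpn, Igfbp2 and Cldn18 among them, while Aqp5, Spock2, Cyp2b10 and Sec14l3 were at or near 0.

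Surfactant RNA was present in the same cells. Sftpc, the AT2 surfactant protein gene that is also active in distal progenitors, stood at 1817 CPM in AT1-leaning cells, 1629 CPM in the cells with a lower score, 1196 CPM in Ager-zero distal cells, 2092 CPM in Sftpa1-positive cells and 431 CPM in airway cells. The ratio to Ager-zero distal cells was 1.52 (1.47 to 1.57), just past the limit, and it came to 1.42 with ratios centred on the median gene and to 1.37 at the lowest. At 5000 UMIs 81.1% of AT1-leaning cells (75.5 to 85.9%) had an Sftpc UMI, against 73.7% of Ager-zero distal cells and 30.0% of airway cells, with 13.5% (4.54 to 28.8%) in Epcam-zero cells with collagen UMIs, and the unthinned shares were 89.6%, 81.0%, 39.9% and 20%. Median depths were 11621.5, 10736, 11581.5 and 7788.5 UMIs. Smoc2 and Sftpc were seen together in 37.0% of AT1-leaning cells (30.8 to 43.4%) and in 14.3% of Ager-zero distal cells (12.1 to 16.8%), with 57.6% and 24.1% unthinned, a pair looked at after the values of both genes were known. Each gene alone was also seen in a larger share of AT1-leaning cells. Whether Smoc2 and Sftpc are linked within a cell was not tested.

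The other AT2 genes differed in direction. Of 20 AT2 genes 10 entered against all other kept cells, 1 higher, 3 lower and 6 within the limits, beside 1.88% and 2.68% of all genes past them, with a median log2 ratio of -0.14 beside 0.03, and 5 of the 20 were at 0. That median kept its sign in 16 of 18 alternative settings and reached 0.16 among cells with no Mki67 or Top2a UMI. Sftpb, a second surfactant protein gene, was at 18.7 CPM (14.2 to 24.2) against 34.0 CPM, a ratio of 0.549 (0.414 to 0.716), with 71.7 CPM in Sftpa1-positive cells. Abca3, the lipid pump of lamellar bodies, had 5 UMIs in AT1-leaning cells, 1.64 CPM (0.533 to 3.83) against 7.47 CPM. Dram1, a lysosomal membrane protein gene, was at 20.01 against 39.7 CPM, and Lamp3, a lamellar body protein gene, at 0.656 against 4.05 CPM without entering. Muc1, a surface mucin gene, was the 1 higher gene, at 28.2 CPM against 16.9 CPM, a ratio of 1.67 (1.32 to 2.09) that came to 1.13 when all 792 cells were used. Because Sftpa1-positive cells were left out by the conditions, the comparison with Ager-zero distal cells is the one without that gate. There 9 AT2 genes entered, Sftpc and Muc1 were higher, and Sftpb at 0.654 (0.484 to 0.870) and Dram1 at 0.506 were lower, beside 5.34% and 2.11% of all genes. The Sftpb ratio ran from 0.61 to 0.96 over its alternatives, with the highest value among cells with no Mki67 or Top2a UMI.

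Genes of the distal tip were lower or within the limit. Of 15 tip genes 14 entered each comparison, 0 were higher and 3 were lower, namely Bmp4, Id2 and Etv4, with medians of -0.17 and -0.25. Among cells with no Mki67 or Top2a UMI these medians came to 0.07 and -0.04, the highest of 18 alternative settings. Over all genes 1.88% were higher and 2.68% lower than in all other kept cells, with a median of 0.03, and 5.34% and 2.11% than in Ager-zero distal cells, with a median of 0.10. Id2, an inhibitor of basic helix-loop-helix factors that marks the tip, stood at 532 CPM (507 to 559) in AT1-leaning cells, 809 CPM in the cells with a lower score, 920.3 CPM in Ager-zero distal cells, 1263 CPM in Sftpa1-positive cells and 428 CPM in airway cells. Its ratio was 0.621 (0.590 to 0.652) to all other kept cells and 0.578 (0.548 to 0.609) to Ager-zero distal cells, and it came to 0.843 and 0.797 with all 792 cells. At 5000 UMIs 68.1% of AT1-leaning cells (61.7 to 73.9%) and 81.7% of Ager-zero distal cells had an Id2 UMI, with 82.0% and 88.1% unthinned. Epcam-zero cells with collagen UMIs, whose own RNA can hold Id2, were at 43.2%. Sox9, the tip transcription factor, was at 103 CPM (91.9 to 115) against 130 CPM in all other kept cells and 144 CPM in Ager-zero distal cells, ratios of 0.793 and 0.713 that did not pass the limit. Sox9 and Sftpc were seen together in 31.5% of AT1-leaning cells and 35.9% of Ager-zero distal cells at 5000 UMIs, with overlapping intervals, and in 52.4% and 56.2% unthinned. Wnt7b at 89.9 against 111 CPM and Hmga2 at 125 against 153 CPM had ratios of 0.811 and 0.819, while Shh at 70.9 against 57.1 CPM and Foxp2 at 304 against 246 CPM both had a ratio of 1.24.

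The level of several of these genes went with the score inside the chosen cells. The 792 cells were split into ranks 1 to 50, 51 to 125, 126 to 250, 251 to 500 and 501 to 792, limits set after the values had been seen. Id2 stood at 374, 500.1, 600.4, 727 and 876 CPM from the highest to the lowest score, and the intervals of the first 3, 322 to 431, 456 to 548 and 563 to 639, did not overlap. Tgfb2 ran the other way at 255, 223, 192, 169.7 and 149 CPM. Sftpc stood at 2159, 1876, 1676, 1666 and 1598 CPM, so it too was highest where the AT1 score was highest. Bmp4 stood at 13.8, 21.5, 20.5, 52.0 and 50.8 CPM, with a step between the chosen cells and the rest. Smoc2 stood at 182, 188, 147, 103 and 103 CPM, and Cym at 257, 385, 275, 197 and 176 CPM with its highest value in the second range. Median depth rose over the same ranges from 8689.5 to 11811, 12041, 13855 and 14121 UMIs, and its part in these orders was not tested.

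**Figure D4:**
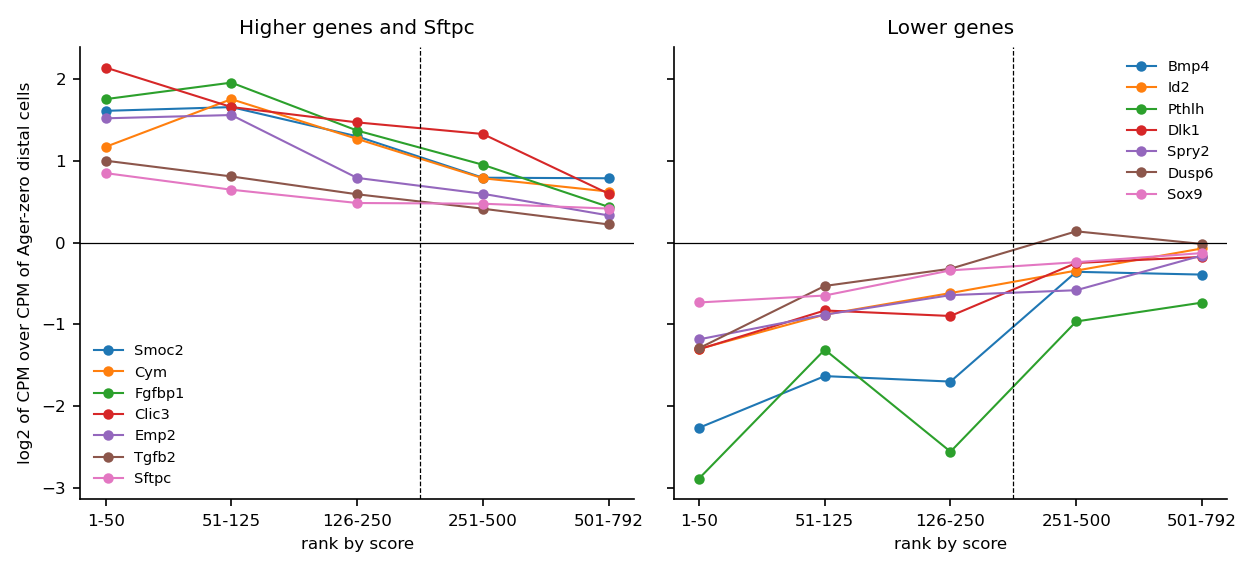
Log2 of the level in 5 ranges of the score over the level in Ager-zero distal cells, for genes that were higher (with Sftpc) on the left and lower on the right; the dashed line separates AT1-leaning cells from the cells with a lower score. Tgfb2 and Sftpc lie lower, and Id2 and Sox9 closer to 0, in each range of lower score.

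Fibroblast growth factor (FGF) signals keep tip cells in the progenitor state, and the next list holds FGF receptors and genes that respond to these signals. Of 13 listed, 11 entered, 0 were higher and 4 were lower than in all other kept cells, beside 1.88% and 2.68% of all genes, with a median log2 ratio of -0.33 beside 0.03. In the comparison with Ager-zero distal cells 0 were higher and 3 lower, beside 5.34% and 2.11%, with a median of -0.34 beside 0.10. Spry2, a feedback inhibitor of receptor signalling, stood at 28.5 CPM (22.9 to 35.2) against 44.6 CPM, a ratio of 0.640 (0.510 to 0.793), and at 49.4 CPM in Ager-zero distal cells. Dusp6, a phosphatase induced by the pathway, stood at 27.2 CPM against 41.3 CPM, a ratio of 0.660 (0.522 to 0.823), and was within the limit against Ager-zero distal cells at 0.703. Spred2 stood at 6.56 against 11.02 CPM and Etv4, an ETS factor of the tip, at 3.94 against 9.46 CPM, each from 20 UMIs or fewer in AT1-leaning cells. Etv5, the more abundant ETS factor, was within the limit at 179 against 201 CPM, and the receptor Fgfr2 at 111 against 107 CPM. When the alternatives were run, Etv4 came to 0.77, Spry2 to 0.91, Dusp6 to 0.97 and Spred2 to 1.11 against all other kept cells at the highest, so each of these 4 calls was lost in at least 1 setting.

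Among BMP and TGF-beta genes the ligands differed in direction. Of 15 listed 13 entered, 1 was higher and 4 were lower in both comparisons, beside 1.88% and 2.68% of all genes in the first and 5.34% and 2.11% in the second. The medians were -0.04 beside 0.03 for all genes, and 0.10, which is that of all genes in the second. Tgfb2, a TGF-beta ligand, was at 212 CPM (196 to 229) against 123 CPM, a ratio of 1.72 (1.59 to 1.87), and 1.67 (1.51 to 1.83) to Ager-zero distal cells, which came to 1.36 with all 792 cells. It was lowest in airway cells at 94.5 CPM. Before thinning 81.2% of AT1-leaning cells had a UMI of it, with no share of another class set beside it, so the share is not a contrast. The lower genes were Bmp4, Id2, Id4 and the receptor Tgfbr2, the last from 14 UMIs at 4.59 against 9.36 CPM. Id3, another member of the ID family, was within the limit on the other side of 1, at 292 CPM (273 to 312) against 206 CPM, a ratio of 1.42 (1.32 to 1.52), so that Id2 and Id3 differed in direction. Id1 was at 97.4 against 86.9 CPM.

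The 4 LEF/TCF genes, which encode the factors the series is about, stood at 20.97 CPM or less in every class. Lef1 stood at 3.28 CPM (1.57 to 6.03) in AT1-leaning cells and 3.19 CPM in the other kept cells, Tcf7 at 5.25 and 7.22 CPM, Tcf7l1 at 12.1 (8.55 to 16.7) and 16.0 CPM, and Tcf7l2 at 16.1 (11.9 to 21.3) and 17.6 CPM. The ratios were 1.03, 0.727, 0.759 and 0.911, and each interval held 1. Of 15 genes of the LEF/TCF and Wnt feedback list 10 entered, and 0 were higher or lower than in all other kept cells, where 1.88% and 2.68% of genes were. Axin2 and Sp5, feedback genes of Wnt signalling, stood at 6.89 against 7.98 CPM and 15.1 against 15.6 CPM. The 1 gene lower than in Ager-zero distal cells was Tcf7 at 0.636 (0.349 to 1.09) from 16 UMIs, and that ratio ran from 0.47 to 1.43 over its alternatives.

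In the Hippo pathway, whose effectors YAP and TAZ act through TEAD factors and are known for their part in AT1 cells, 13 of 16 genes entered against all other kept cells. Of these 0 passed a limit, where 1.88% of all genes were higher and 2.68% lower. Yap1 stood at 31.5 against 37.9 CPM, Wwtr1, which encodes TAZ, at 11.2 against 12.9 CPM and Tead1 at 32.2 against 27.3 CPM. Of 15 YAP/TAZ target genes 9 entered, and 1 was higher, Tgfb2, beside 1.88% of all genes. Cyr61, a widely used target, was at 653 against 610.0 CPM, a ratio of 1.07 (1.02 to 1.12), and Ctgf at 2.30 against 5.66 CPM without entering. Among 14 Notch genes 6 entered and 1 was higher, beside the same 1.88%. That gene, Lfng, a glycosyltransferase that modifies Notch, stood at 17.4 CPM against 9.94 CPM, a ratio of 1.75 (1.29 to 2.33), and 2.16 (1.502 to 3.07) to Ager-zero distal cells. The first came to 1.40 among cells with a Y-linked and no Xist UMI.

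Genes of epithelial structure were mostly within the limit, with more of them past it against Ager-zero distal cells. Of 24 basement membrane and integrin genes 17 entered, and 1 was higher than in all other kept cells, beside 1.88% of all genes. It was Lamb3, the beta chain of laminin 332, at 14.1 CPM against 8.08 CPM, a ratio of 1.75 (1.24 to 2.41) that came to 1.13 among cells with a Y-linked and no Xist UMI. In the comparison with Ager-zero distal cells 3 of 17 were higher, beside 5.34% of genes, namely Lamb3, Col4a4 and the laminin receptor subunit Itga3, whose ratio of 1.58 fell to 0.824 among cells with no Mki67 or Top2a UMI. Of 16 junction genes 16 entered, with 0 past a limit against all other kept cells and 2 higher against Ager-zero distal cells, Tjp3 at 1.67 (1.04 to 2.61) and the desmosomal Pkp2 at 1.59 (1.03 to 2.41), beside 5.34% of all genes. Of 5 keratins, Krt7 had ratios of 1.47 and 1.73, and Krt15 of 1.56 (1.07 to 2.21) to all other kept cells from 36 UMIs, which came to 0.962 among cells with high Xist and no Y-linked UMI. Of 30 actin and cortex genes 30 entered, with 0 past a limit against all other kept cells and 5 higher against Ager-zero distal cells, beside 5.34% of all genes. Anxa2, an annexin of the membrane cortex, stood at 183 against 103 CPM, a ratio of 1.77 (1.60 to 1.96), and Anxa1 at 105 against 61.8 CPM, a ratio of 1.70 (1.49 to 1.95). Both were higher still in airway cells, at 309 and 247 CPM. Anxa5 and Cav2 had ratios of 1.51 and 1.55, and Anxa5 came to 1.34 in the 100 highest cells.

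**Figure D5:**
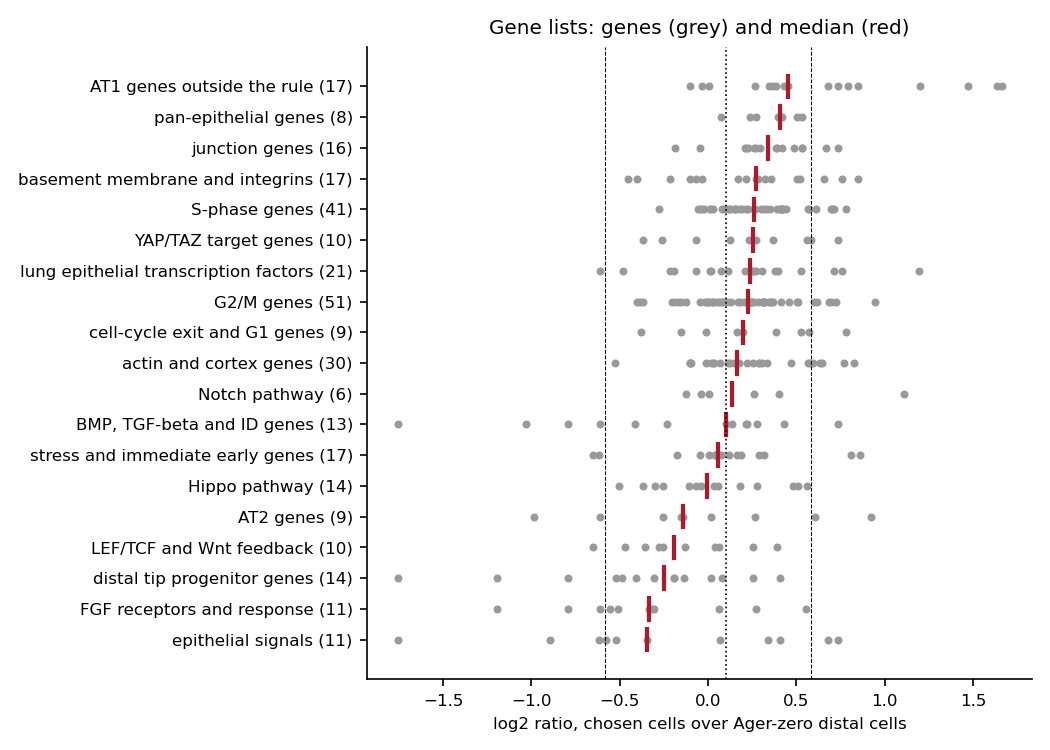
Log2 ratio of AT1-leaning to Ager-zero distal cells for each gene that entered from 19 gene lists (grey) with the list's median (red) and its number of genes; dashed lines are the 1.5-fold limits and the dotted line is the median of all genes, 0.10. AT1 genes have the highest median at 0.45, and FGF response genes and epithelial signals the lowest at -0.34 and -0.35. The median of epithelial signals kept its sign in 12 of 18 alternative settings and reached 0.34 with a minimum of 10 expected UMIs.

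Of 25 lung epithelial transcription factors 21 entered, with Elf3 higher and Id4 lower than in all other kept cells, beside 1.88% and 2.68% of all genes. Elf3, an epithelial ETS factor, stood at 18.04 CPM (13.6 to 23.5) against 9.61 CPM, a ratio of 1.88 (1.39 to 2.50), and 2.29 (1.60 to 3.26) to Ager-zero distal cells, with 7.69 CPM in Sftpa1-positive and 14.8 CPM in airway cells. The ratio of Elf3 to all other kept cells came to 1.16 when all 792 cells were used. Klf5, a factor of distal epithelium, was also higher than in Ager-zero distal cells at 52.8 against 31.2 CPM, a ratio of 1.69 (1.39 to 2.05), and Elf5 at 28.5 against 17.4 CPM, a ratio of 1.64 that turned to 0.890 in the 100 highest cells. Nkx2-1, the lung lineage factor, was within the limit at 415 against 345 CPM, a ratio of 1.20 (1.13 to 1.27). Of 18 signals made by epithelium 11 entered. Tgfb2 was higher, and Bmp4 and Sema3c lower, than in all other kept cells, beside 1.88% and 2.68% of all genes. Sema3c stood at 45.6 against 73.0 CPM, with 135 CPM in airway cells. Relative to Ager-zero distal cells Fgf9 at 3.94 against 7.31 CPM and Edn1 at 9.51 against 14.6 CPM were lower, with ratios of 0.538 (0.267 to 0.995) and 0.651 (0.422 to 0.972). In that comparison 2 of the 11 signals were higher and 3 lower, beside 5.34% and 2.11% of all genes.

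RNA of proliferation genes was seen in AT1-leaning cells at a share within the range of the other classes. At 5000 UMIs 42.9% of them (36.5 to 49.4%) had a UMI of Mki67 or Top2a, against 42.4% of all other kept cells, 38.3% of Ager-zero distal cells, 49.1% of Sftpa1-positive cells and 35.9% of airway cells, and 40.5% of Epcam-zero cells with collagen UMIs, whose own RNA can hold these genes. The unthinned shares were 56.4%, 60.3%, 54.5%, 72.4%, 51.0% and 55%. Summed levels of 52 G2/M genes were 5973 CPM in AT1-leaning cells and 5979 CPM in all other kept cells. Of 51 that entered 0 passed a limit, where 1.88% of all genes were higher and 2.68% lower. The summed G2/M ratio was 1.08 (1.06 to 1.09) to Ager-zero distal cells and 0.929 (0.913 to 0.944) to Sftpa1-positive cells. Summed levels of 42 S-phase genes were 3295 CPM against 2788 CPM, a ratio of 1.18 (1.16 to 1.21), and 1.22 (1.20 to 1.25) to Ager-zero distal cells. Sftpa1-positive cells stood at 3251 CPM, a ratio of 1.01 (0.991 to 1.04), so this level was not particular to AT1-leaning cells. Of the 41 S-phase genes that entered, 2 were higher than in all other kept cells, the nuclease gene Fen1 at 1.55 (1.34 to 1.79) and the chromatin assembly gene Chaf1b at 1.53 (1.28 to 1.81), beside 1.88% of all genes. Over their alternatives these came down to 1.21 and 1.20. Against Ager-zero distal cells 6 S-phase and 6 G2/M genes were higher, beside 5.34% of all genes. Of 14 genes of cell-cycle exit and G1, 9 entered, with 0 past a limit against all other kept cells. Cdkn1c, an inhibitor of cyclin-dependent kinases, was at 531 CPM, with 1487 CPM in airway cells and 237 CPM in Sftpa1-positive cells.

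Markers of other cells were given for the whole lists. Over all genes that entered, 1.88% were higher and 2.68% lower than in all other kept cells. Against Ager-zero distal cells these shares were 5.34% and 2.11%. Of 10 mesenchymal genes 6 were at 0 in AT1-leaning cells, and their summed level was 3.94 CPM against 40.3 CPM in all other kept cells and 9.75 CPM in Ager-zero distal cells. The 3 that entered against all other kept cells, Dcn, Mfap4 and Acta2, were lower. Of 10 endothelial genes 7 were at 0, and the summed 35.8 against 37.1 CPM came mostly from Egfl7 at 33.5 CPM. Of 10 blood genes 5 were at 0, at 3.28 against 25.5 CPM in sum, with 84.8 CPM in Ager-zero distal cells. Of 8 mesothelial genes 2 were at 0, and Krt19, which epithelium also expresses, gave 96.8 of the summed 101 CPM. Of 10 neuroendocrine genes 3 were at 0. Of 15 airway genes outside the rule 6 were at 0. Of the 5 that entered against all other kept cells, Krt15 was higher and Aldh1a1 and Tspan1 were lower. Of 8 pan-epithelial genes 8 entered with ratios above 1 and 0 past the limit, at a summed 2578 against 2219 CPM. Of 20 stress and immediate early genes 17 entered. Hspa1a was lower at 0.596 than in all other kept cells, with 22 of its 51 UMIs in 1 cell, and against Ager-zero distal cells Dusp1 at 1.81 and Gadd45b at 1.75 were higher and Zfp36 and Ier3 lower. What part tissue dissociation had in these was not tested.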

How the data were processed

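Single-cell RNA was measured in 1 control and 1 knockout library, and the control library was analysed. Values are UMI counts as the authors deposited them, whole numbers that had not been normalized. The submitters' processing notes name Cell Ranger, Seurat and the build mm10, and the software version is 3.0.1 per the file headers. The rule by which barcodes were called cells is not given in the sources used here. Cells had at least 1000 genes, at most 10% mitochondrial UMIs and at most 30000 UMIs, and no doublet caller was run. That UMI limit removes droplets with very many UMIs, and the share of cells with at least 4 Xist UMIs and a Y-linked UMI is given in its place.

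UMIs were summed per class and given as CPM with exact Poisson intervals. Ratios have exact conditional intervals and shares exact Clopper-Pearson intervals, all at 95% and for counting error only. A gene entered when the pooled level predicted at least 20 UMIs in AT1-leaning cells, and the 8 genes of the rule were left out. For shares, cells were thinned to 5000 UMIs (seed 0), and 12 AT1-leaning cells below that were left out. Epcam-zero cells with at least 3 collagen UMIs (40 cells, Col1a1, Col1a2 and Col3a1 summed) stood for free RNA. Their gate, the ranges of the score, the pairs of genes and the motifs were chosen after values were seen. The members and the 26 gene lists were chosen with earlier results of these data known. Named genes were the 15 highest and 15 lowest ratios to all other kept cells and the 10 and 10 to Ager-zero distal cells, after adding 10 CPM and with a UMI in at least 10% of cells, together with listed genes past a limit, AT1 genes and the LEF/TCF genes. Gene positions came from GENCODE M21 by identifier. The scripts were tested on simulated data. Python 3.11.15, numpy 2.4.6, scipy 1.17.1, pandas 2.3.3 and matplotlib 3.10.9 were used. Results for a few genes are not reported here.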

Additional observations from a re-analysis of the deposited data

How the results depend on the processing

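With 1 library, no replicate could be left out, and no paired analysis was possible because each group has 1 library. Counts of genes moved by more than 1.5 times under these settings. Against all other kept cells (151 higher, 216 lower), a fold limit of 2 gave 18 and 58, a minimum of 10 expected UMIs 273 and 464, a minimum of 50 gave 55 and 52, and cells with high Xist and no Y-linked UMI gave 72 and 96. The lower count alone moved to 426 with all 792 cells, 124 with the 100 highest cells, 137 in cells with a Y-linked and no Xist UMI, and 326 without the cell with the most UMIs of each gene, a setting that by its construction takes more from the smaller class. Against Ager-zero distal cells (422 and 167), the fold limit of 2 gave 48 and 37, minimums of 10 and 50 gave 664 and 347 and 165 and 39, cells with no Mki67 or Top2a UMI 235 and 92, cells with high Xist 187 and 53, and centring, added after the data were seen, 251 and 257. Over the named genes, 903 of 1043 recomputed ratios to all other kept cells and 1131 of 1276 to Ager-zero distal cells stayed within the counting interval. Of the ratios called higher or lower, those that crossed 1 against all other kept cells were Krt15 (0.962) and Spred2 (1.11) in cells with high Xist and Hspa1a (1.07) in cells with a Y-linked UMI. Against Ager-zero distal cells they were Elf5 (0.890) in the 100 highest cells, Tcf7 ranked at 5000 UMIs (1.05), without cycling cells (1.22) and with high Xist (1.43), Tgfbr2 (1.08), Itga3 (0.824), Nusap1 (0.359) and Ckap2l (0.392) without cycling cells, and Sema3e (0.787) and Spred2 (1.17) with high Xist. The cause was not tested. Ratios of LEF/TCF genes that were not called also crossed 1. Against all other kept cells Tcf7 reached 1.36, Tcf7l1 1.05 and Tcf7l2 1.06, and Lef1 came down to 0.900. Against Ager-zero distal cells Lef1 reached 1.26 and Tcf7l2 1.02. Ranking at 5000 UMIs kept 147 of the 250 cells, so the membership of single cells is not fixed by these counts. With another seed for thinning, 43 of 45 shares stayed within their intervals. Ratios under a setting were recomputed only with at least 5 expected UMIs.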

Other observations

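Smoc2 and Cym, which lead the genes called higher by ratio after adding 10 CPM, were seen together in part of the AT1-leaning cells. Both were taken from the top of the same comparison, and each alone was seen in a larger share of AT1-leaning cells. A larger share with both and a smaller share with neither go with that choice. Whether Smoc2 and Cym are linked within a cell was not tested. At 5000 UMIs, Cym and Smoc2 were seen in 21.01% of AT1-leaning cells against 6.84% of all other kept cells, and neither Cym nor Smoc2 in 28.6% (22.9 to 34.8%) against 59.6%. The unthinned shares were 41.2% against 16.4% for both and 16.8% against 40.4% for neither. In airway cells Cym was at 48.2 CPM and Smoc2 at 94.5 CPM, while in Sftpa1-positive distal cells Cym was at 130.1 CPM and Smoc2 at 31.3 CPM, so that the classes stood in opposite order for the 2 genes.

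Pf4, a platelet gene, had 2 UMIs in AT1-leaning cells and 874 in Ager-zero distal cells. Fewer than 10% of the Ager-zero distal cells had a UMI of it, so it fell under the minimum share for a leading gene. The summed level of 10 blood genes was 84.8 CPM in that class, so the reference holds some blood RNA.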
